A study of Mus musculus with 30 samples.

Results

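Genes by which spinal motor neurons are known were followed, 10 in all: the transcription factors Mnx1, Isl1, Isl2 and Lhx3, the cholinergic genes Chat, Slc18a3 and Slc5a7, and Prph, Chodl and Ret. They were taken by gene symbol, as every probe set that the array's annotation assigns to 1 of the 10 and to no other gene, which gave 16 of the 45101 probe sets on the array. Isl1, Lhx3 and Ret had 2 probe sets each, Prph had 4, and the other 6 genes had 1 each. The study hybridised RNA to 30 Affymetrix Mouse Genome 430 2.0 arrays, and 8 of them, all of E18.5 tissue, carry the comparison of interest.

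The tissue groups were spinal cord of Olig2 -/- mice (samples 1 and 2), spinal cord of Olig2 +/- mice (samples 3 and 4), forebrain of Olig2 -/- mice (1 and 2) and forebrain of Olig2 +/- mice (3 and 4). They are called null and heterozygous below. The tissue labels name Olig2 alone, while the design of the series names Olig1/2 for the same groups, and no wild-type tissue was among the samples. The other 22 arrays were of neurospheres, floating cultures of neural progenitors, from the ganglionic eminences of E14.5 embryos. All cultures were Ink4a/Arf-/- and had received hEGFRvIII by retrovirus. There were 6 Olig1/2-/- cultures, 3 Olig1/2+/- cultures and 3 Olig1/2+/+ cultures, then 3 Olig1/2-/- and 2 Olig1/2+/- lines labelled as overexpressing Olig2, each matched by the same line labelled as overexpressing GFP. All tissues and cultures were on a mixed Swiss and C57BL/6J background. Cultures were harvested between passages P4 and P15, and the passage of each array was not given.

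Motor neurons arise in the ventral spinal cord from progenitors that express Olig2, a basic helix-loop-helix factor, and the same progenitor domain later gives oligodendrocytes. As they leave the cell cycle they switch on Mnx1, Isl1, Isl2 and Lhx3, homeodomain factors that set their identity. They then make acetylcholine with Chat, load it into vesicles with the transporter encoded by Slc18a3, and take choline back up through the transporter encoded by Slc5a7. Prph encodes peripherin, an intermediate filament of neurons with peripheral axons, Chodl encodes a lectin known from fast motor neurons, and Ret encodes the receptor tyrosine kinase for GDNF family ligands. Isl1, Prph and Ret are also expressed by sensory neurons of the dorsal root ganglia, and Isl1 by striatal projection neurons and cholinergic neurons of the forebrain.

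The promoters of Chodl, Slc18a3 and Isl1 are shown because these genes carry the contrasts described below, and because the factor removed in the null embryos belongs to a family known to bind E-boxes. Each sequence is the RefSeq window of build GRCm38.p6 from 250 bases before to 50 bases after a start of the gene. It is given 5′ to 3′ on the gene's strand, with every E-box, CANNTG, in capitals. The Chodl window is chr16:78930698-78930997 on the plus strand, the Slc18a3 window chr14:32464801-32465100 on the minus strand, and the Isl1 window chr13:116309639-116309938 on the minus strand. The annotated span of Chodl begins at 78930841, inside its window and earlier than the start the window is set on.
Chodl: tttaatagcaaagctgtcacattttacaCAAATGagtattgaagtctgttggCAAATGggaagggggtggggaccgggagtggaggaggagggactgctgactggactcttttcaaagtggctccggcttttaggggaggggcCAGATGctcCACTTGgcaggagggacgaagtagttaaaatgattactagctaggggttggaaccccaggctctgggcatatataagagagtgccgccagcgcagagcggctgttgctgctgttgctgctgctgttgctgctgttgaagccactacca
Slc18a3: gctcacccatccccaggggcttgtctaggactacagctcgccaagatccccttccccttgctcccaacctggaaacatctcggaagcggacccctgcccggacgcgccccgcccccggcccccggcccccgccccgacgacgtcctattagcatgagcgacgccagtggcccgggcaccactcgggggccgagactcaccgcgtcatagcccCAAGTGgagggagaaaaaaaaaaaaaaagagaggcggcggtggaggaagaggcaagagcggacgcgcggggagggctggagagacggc
Isl1: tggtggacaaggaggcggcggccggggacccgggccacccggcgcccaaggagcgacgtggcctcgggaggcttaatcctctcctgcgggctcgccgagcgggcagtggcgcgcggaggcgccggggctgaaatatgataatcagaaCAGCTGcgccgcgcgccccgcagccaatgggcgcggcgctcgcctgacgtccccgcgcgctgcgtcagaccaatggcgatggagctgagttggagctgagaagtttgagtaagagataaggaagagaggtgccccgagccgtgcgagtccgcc
The Chodl window held 4 E-boxes, and the Slc18a3 and Isl1 windows held 1 each. Windows were at hand for 9 of the 10 genes, 10 windows in all since Lhx3 has 2, and 7 of the 10 held an E-box, which reads the same on both strands. Of all 32851 windows of this length, 72.3% held one. The letters TAAT, the core of many homeodomain sites, searched on both strands, were in 5 of the 10 windows and in 58.0% of all windows. These matches describe the letters only. On the chromosomes, Slc18a3 lies inside the span of Chat on chromosome 14. Chodl lies on chromosome 16, which also holds Olig1 and Olig2, and it ends 12.3 Mb before the start of Olig2. On this mixed background, the part of the shared chromosome in the Chodl contrast described below was not tested.

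Values are MAS5 signals, the array software's linear brightness of a probe set, which the authors scaled to a trimmed mean of 500 on every array. Array medians ran from 128.9 to 217.4, and the arrays of a group correlated with each other at r = 0.926 to 0.945. Differences below are of log2(signal + 16), tested with limma across all probe sets that reached the array's median on at least 2 tissue arrays, and a probe set was called at a Benjamini-Hochberg adjusted p under 0.05. Fold changes are on the same scale and understate the change of dim probe sets. The tissue labels fitted the tissue: 7 Hox genes of spinal cord summed to between 11559.4 and 13842.1 on the 4 cord arrays and between 1052.3 and 1714.5 on the 4 forebrain arrays. The Olig2 probe set read 58.5 and 23.8 in null cords and 335.1 and 736.0 in heterozygous cords, without overlap, though its difference of -3.24 (SE 0.50) missed the threshold in limma's test (adjusted p = 0.0587). Olig1 read 2007 and 1878 in null cords, against 3901.1 and 4068.1 in heterozygous cords, and fell by 1.03 (SE 0.12, adjusted p = 0.0119 in limma). In cultures labelled null, Olig2 averaged 8302 ± 2120 (SD, n = 6), against 15500 ± 2224 in wild-type cultures (n = 3), so its probe set does not check the culture labels, and where it lies relative to the deleted part was not given.

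Of the 16 probe sets, 1 was called between null and heterozygous spinal cord. Chodl was lower in null cords, in which the signal was 783.8 and 821.4, against 2150.7 and 2140.4 in heterozygous cords. Within each genotype the 2 cords were almost alike, and the genotypes were far apart. Chodl fell by 1.40 on the log2 scale, or 2.64-fold (SE 0.18, adjusted p = 0.0196 in limma). Over all 25925 probe sets tested, 21 were called, 0.0810%, of which 14 were lower in null cords, 0.0540%. In tissue made of many cell types, fewer cells of a type and less RNA per cell cannot be told apart. The call rests on both arrays of each group: with any 1 of the 4 cord arrays left out the difference stayed between -1.43 and -1.37, and the adjusted p was between 0.118 and 0.16. It was also lost without the trend of variance with signal in the fit (adjusted p = 0.176).

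The largest difference among the genes lay in Slc18a3, the vesicular acetylcholine transporter. Its signal was 178.7 and 208.1 in null cords, against 751.5 and 749.3 in heterozygous cords. Both null cords lay well below both heterozygous cords, and the heterozygous cords were nearly equal. The difference was -1.88 (SE 0.41), a 3.67-fold lower level in null cords, with an unadjusted p of 0.000869 that did not pass after adjustment (adjusted p = 0.275 in limma). When the 2 cord groups alone were fitted, Slc18a3 was called (adjusted p = 0.0151 in limma). Its probe set reached the array median on the 2 heterozygous cord arrays only, so it entered the test through the group in which it was high.

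The other cholinergic genes gave smaller signals on these arrays. Chat, which makes acetylcholine, read 172.7 and 205.5 in null cords, against 258.1 and 327.6 in heterozygous cords. The groups did not overlap, and the difference of -0.59 (SE 0.34) was not called (adjusted p = 0.912 in limma). Its probe set reached the array median on 3 tissue arrays, all heterozygous (both cords and 1 forebrain), so it too entered the test through the genotype in which it was high in cord. Slc5a7, which takes choline back up, read 23.6 and 74.0 in null cords, against 134.2 and 192.2 in heterozygous cords. Both null values were the lower ones, but no tissue array reached its median for Slc5a7, which was therefore not tested. Chat and Slc5a7 in heterozygous cord also lay within or close to the range of the neurospheres, from 31.9 to 309.9 for Chat and from 36.5 to 208.2 for Slc5a7.

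**Figure D1:**
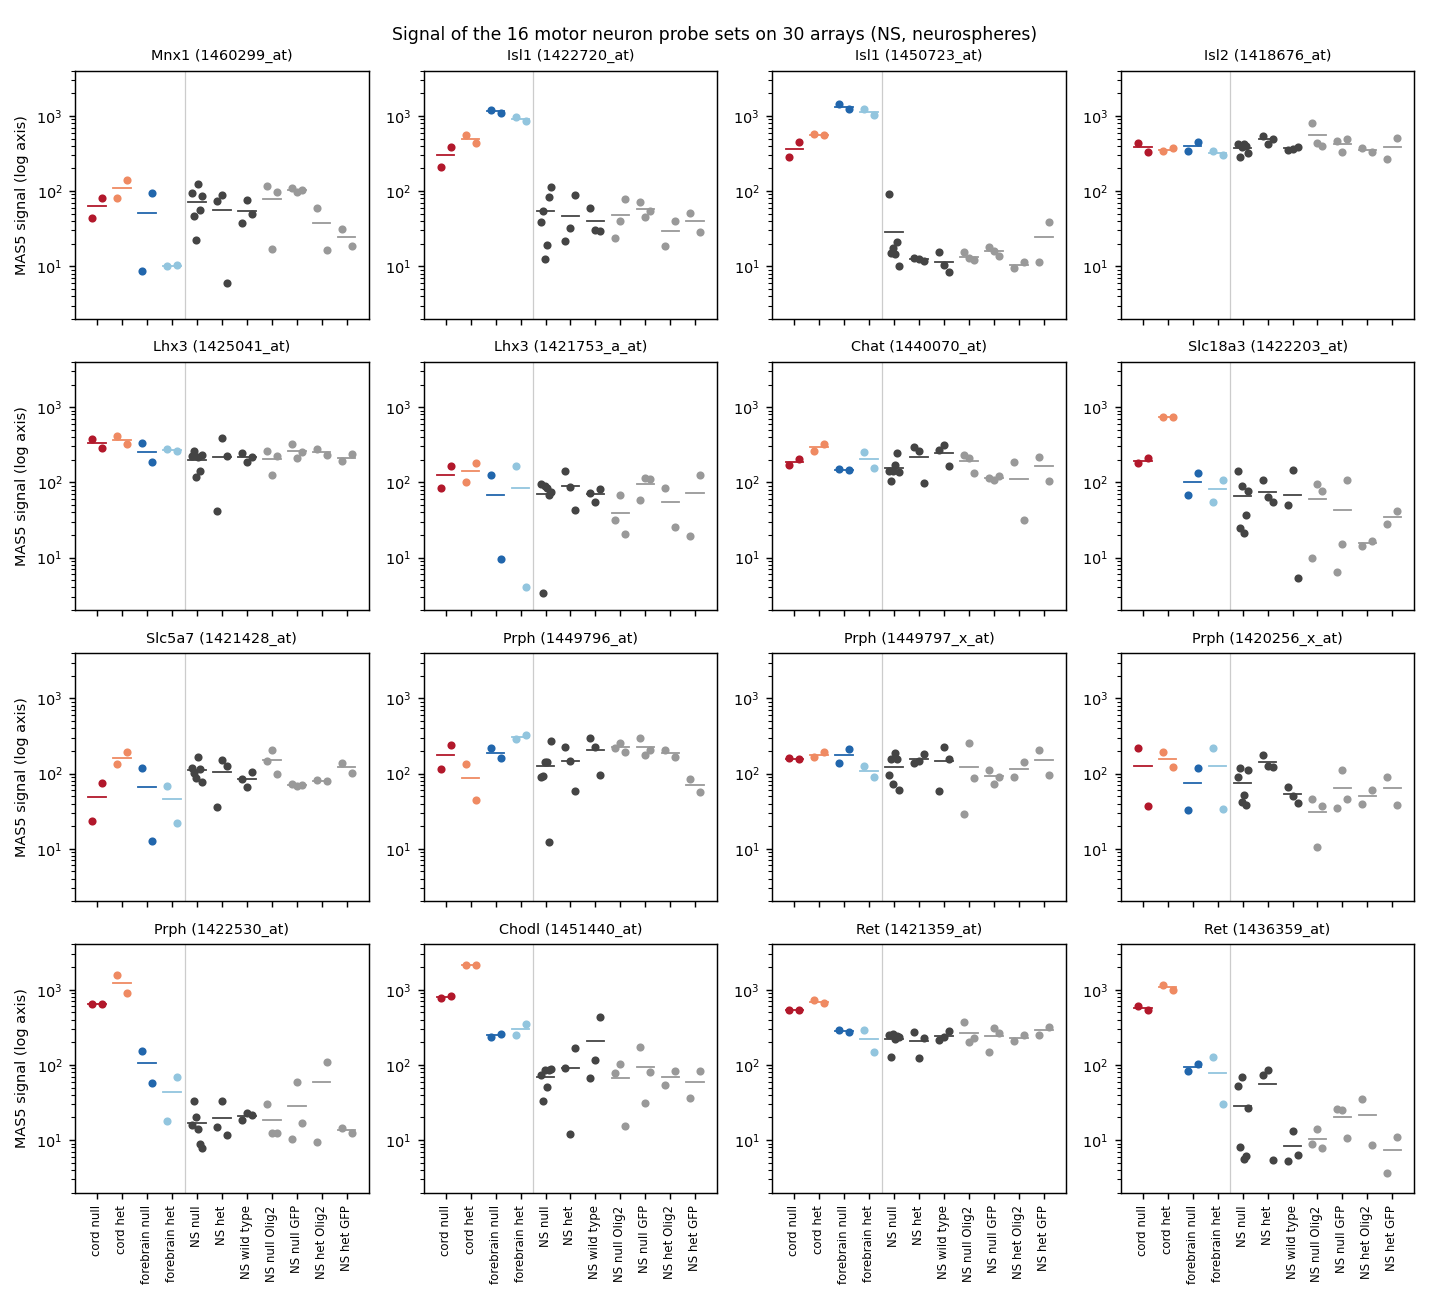
Signal (MAS5, log axis) of the 16 probe sets on all 30 arrays, 1 panel a probe set; each point is an array, each horizontal line the mean of a group, and NS stands for neurospheres. Chodl and Slc18a3 in null cords lie below heterozygous cords and above neurospheres, while Isl2 on every tissue array (302.0 to 447.9) lies within the neurosphere range (269.8 to 813.8).

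Among the homeodomain factors only Isl1 had genotypes that did not overlap in cord, and none was called. Isl1 was read by 2 probe sets. With 1422720_at it was 209.7 and 390.8 in null cords, against 557.6 and 440.4 in heterozygous cords. With 1450723_at it was 281.0 and 453.0 in null cords, against 578.5 and 550.9 in heterozygous cords. On both probe sets null cord 1 was the lowest of the 4 and the genotypes did not overlap, but the gap between null cord 2 and heterozygous cord 4 was small on the first. The differences were -0.76 (SE 0.25) and -0.64 (SE 0.21), and neither was called (adjusted p = 0.626 for both in limma). Isl2, a close relative of Isl1, read 438.4 and 329.5 in null cords, against 337.0 and 374.8 in heterozygous cords. The values overlapped, with a difference of 0.09 (SE 0.23). Lhx3, which pairs with Isl1 in motor neurons, read 381.4 and 289.8 in null cords with 1425041_at, against 410.2 and 320.4 in heterozygous cords. These overlapped too, with a difference of -0.12 (SE 0.30), and the other Lhx3 probe set was below the array median everywhere. Mnx1, the factor most closely tied to motor neurons, read 43.2 and 81.6 in null cords, against 80.2 and 138.5 in heterozygous cords. It was below the array median on every tissue array and was not tested. Isl2 and Lhx3 read 269.8 to 813.8 and 41.6 to 383.6 in the neurospheres, and the cord signals of both lay within or close to these ranges.

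Prph and Ret, genes shared by motor and sensory neurons, were lower in null cords on the probe sets that separate tissue from culture, without a call. Prph with 1422530_at read 644.4 and 639.5 in null cords, against 1568.7 and 896.8 in heterozygous cords. The null cords were equal, and the heterozygous cords differed widely from each other. The difference was -0.87 (SE 0.49, adjusted p = 0.908 in limma). Ret with 1436359_at read 611.8 and 534.8 in null cords, against 1161.4 and 986.8 in heterozygous cords. Here too the genotypes did not overlap, with a difference of -0.89 (SE 0.43, adjusted p = 0.872 in limma). The other Ret probe set, 1421359_at, read 540.8 and 542.9 in null cords, against 721.3 and 667.3 in heterozygous cords, and its difference was smaller, at -0.35 (SE 0.26, adjusted p = 0.96 in limma). The other 3 Prph probe sets stayed near the level of the neurospheres in both genotypes and did not share 1 direction. With 1449796_at the difference was opposite to that of 1422530_at, at 0.95 (SE 0.50). With 1420256_x_at it had the same sign as 1422530_at, at -0.61 (SE 0.96), and the genotypes overlapped on both of these. The third, 1449797_x_at, was not tested. It read 159.4 and 155.7 in null cords, against 165.2 and 191.5 in heterozygous cords, without overlap.

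In all, 10 of the 16 probe sets had both null cords below both heterozygous cords and 0 had both above, whereas 17.2% of all 45037 non-control probe sets had both null cords below and 17.1% both above. Probe sets of 1 gene share their transcript, so the 10 stand for 7 genes: Isl1, Chat, Slc18a3, Slc5a7, Prph, Chodl and Ret. Of the 16, 12 passed the filter on low signal, for 8 genes, and their median difference was -0.62, against 0.00 over all probe sets tested. Slc18a3 passed only through heterozygous cords, and Chat only through heterozygous tissue, so that median describes the probe sets and supports nothing. Unadjusted p was under 0.05 for 4 of the 12 (Chodl, Slc18a3 and both probe sets of Isl1) and for 1528 of all 25925.

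**Figure D2:**
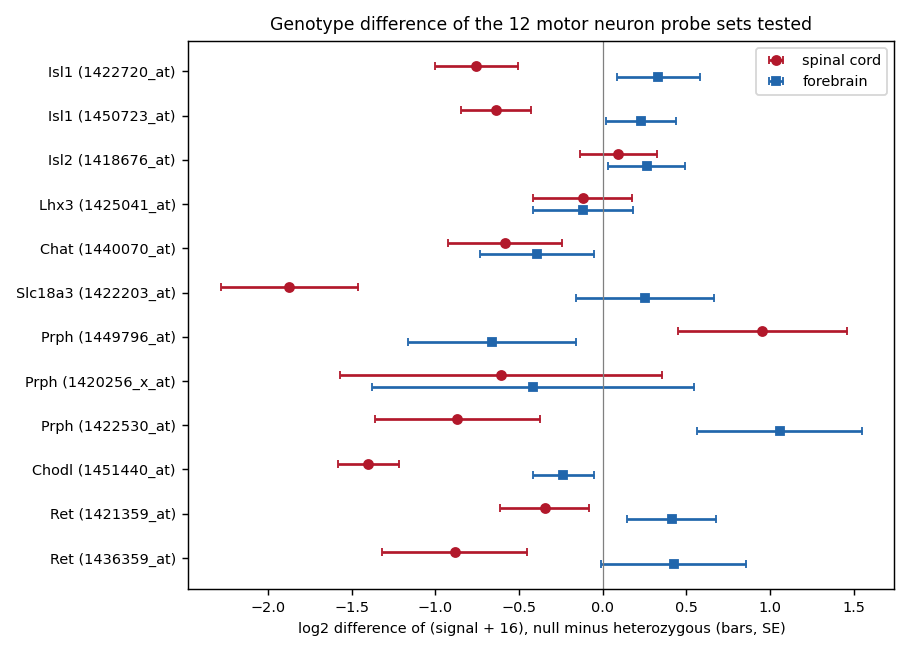
Difference between null and heterozygous tissue, in log2(signal + 16), for the 12 probe sets tested, with spinal cord above forebrain in each pair and bars of 1 SE. In spinal cord Slc18a3 (-1.88) and Chodl (-1.40) lie farthest from 0, and no forebrain difference was called.

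Further motor neuron genes were read from a list of 20, of which 18 had a probe set of their own and all 18 were tested. In null cords 1 of the 18 fell and 0 rose, and the list's median difference was -0.22, against 0.00 over all probe sets. In forebrain the list's median genotype difference was -0.125, with 0 calls, and the median of cord minus forebrain differences was 0.07. The one that fell in null cords was Nefm, the medium neurofilament of large axons, with 5590 and 4946.3 in null cords, against 12138.8 and 11261.9 in heterozygous cords. Its difference was -1.15 (SE 0.13, adjusted p = 0.0105 in limma), and the genotypes lay far apart. Calcb, a calcitonin gene-related peptide gene of motor and sensory neurons, read 152.8 and 148.3 in null cords, against 693.4 and 601.1 in heterozygous cords. That difference of -1.99 (SE 0.48) was not called (adjusted p = 0.343 in limma). Nefl, the light neurofilament, had a difference of -0.52 (SE 0.14, adjusted p = 0.437 in limma), and Gfra1, a co-receptor of Ret, one of -0.40 (SE 0.20, adjusted p = 0.89 in limma). The summed signal of the 18 genes was 26634.1 and 26212.2 in null cords and 38715.5 and 37764.0 in heterozygous cords, and Nefl and Nefm make up most of it.

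Markers of other cells were read on the same arrays. General neuronal genes, 7 of 7 tested and 0 called, summed to 57852.7 and 56194.3 in null cords and to 60360.1 and 56751.5 in heterozygous cords, which overlap. The oligodendrocyte lineage did move with genotype: 3 of 7 genes tested fell in null cords. One was Olig1, given above, which the design of the series names as part of the deleted locus. Without it 2 were called: Gpr17, a receptor of oligodendrocyte progenitors (-5.74, SE 0.37, adjusted p = 0.000276), and Mbp, a myelin protein (-2.95, SE 0.26, adjusted p = 0.00219), both in limma. Vessel and meningeal genes, 6 tested and 0 called, summed to 20404.7 and 20292.9 in null cords, against 11756.5 and 14829.8 in heterozygous cords, and microglial genes, 3 tested and 0 called, to 5024.1 and 4950.8 against 3601.8 and 3260.1. These 2 sums were higher in both null cords. Astrocyte genes, 5 tested and 0 called, summed to 43862.5 and 37235.3 in null cords and to 38438.2 and 39090.9 in heterozygous cords. The part of the shifts in these cells in the motor neuron differences was not tested.

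Neurons of the dorsal root ganglia also express Prph, Ret and Isl1, as do other neurons, and the labels do not describe the dissection. The 6 ganglion markers with a probe set, 3 of them tested and 0 called, summed to 1551.2 and 2089.4 in null cords and to 2033.9 and 1301.4 in heterozygous cords. All 4 sums lay above those of forebrain, 380.5 to 567.5. Of the 6 markers, 4 (Avil, Scn11a, P2rx3 and Trpv1) were lowest on heterozygous cord 4. Avil, an actin-binding protein of sensory neurons, read 288 and 365.9 in null cords, against 424.3 and 31.5 in heterozygous cords. Scn11a, a sodium channel of pain-sensing neurons, was also lowest there, with 249.4 and 410.6 in null cords, against 330.8 and 116.9 in heterozygous cords. The other 2 were not lowest there: Pou4f1, the brightest of the list, a transcription factor of sensory and some central neurons, read 632.9 and 768.7 in null cords, against 742.5 and 864.4 in heterozygous cords, and Scn10a read 110.0 and 186.9 in null cords, against 120.3 and 116.7 in heterozygous cords. Prph with 1422530_at also had its lower heterozygous value in cord 4, and so had both probe sets of Ret and both of Isl1. Chodl and Slc18a3 were about as high in cord 4 as in cord 3. The log2 ratio of the 3′ to the 5′ Gapdh probe set, a sign of RNA length, was 0.30 and 0.29 in null cords 1 and 2, against 0.37 and 0.04 in heterozygous cords 3 and 4, lowest on cord 4. The part of ganglion tissue and of RNA length in the Prph, Ret and Isl1 values was not tested. Schwann cell markers, 1 tested and 0 called, summed to 412.3 and 611.5 in null cords and to 634.4 and 676.8 in heterozygous cords, and skeletal muscle markers, 3 tested and 0 called, to 1003.7 and 1330.8 against 1587.5 and 1442.4.

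**Figure D3:**
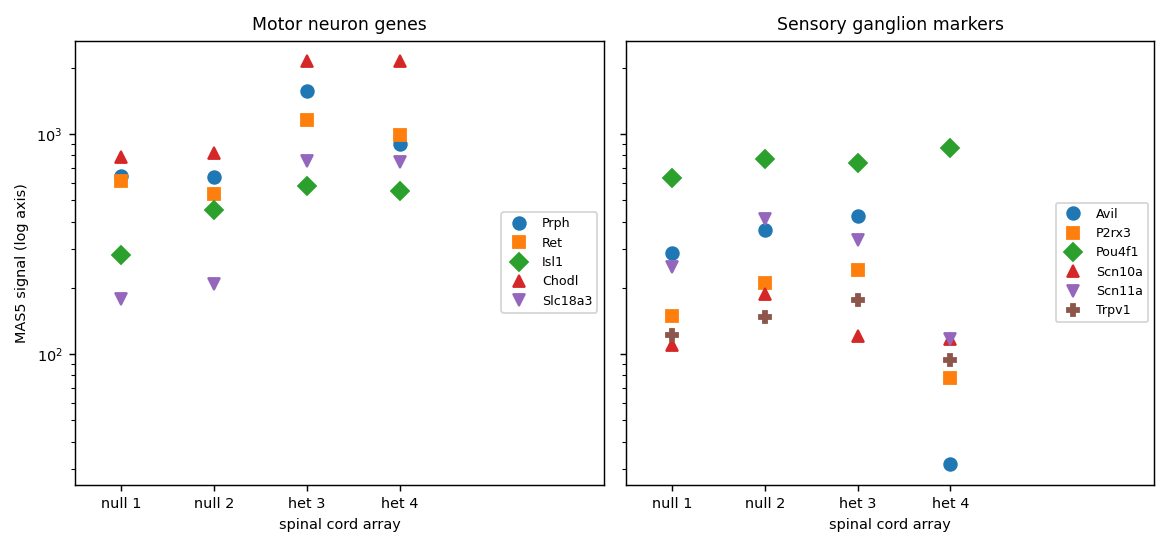
Signal (MAS5, log axis) on the 4 spinal cord arrays, null 1 and 2 left of heterozygous (het) 3 and 4, for 5 motor neuron genes (Prph 1422530_at, Ret 1436359_at, Isl1 1450723_at) and 6 sensory ganglion markers. Chodl and Slc18a3 split by genotype, while Avil is low on heterozygous cord 4 alone (31.5).

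In forebrain, 0 of the 12 probe sets tested were called between null and heterozygous embryos, against 4 of 25925 over all probe sets, 0.0154%. An unadjusted p under 0.05 was found for 0 of the 12 and for 1717 of all 25925. Chodl read 234.2 and 259.5 in null forebrains, against 248.4 and 345.0 in heterozygous forebrains, and the genotypes overlapped. Slc18a3 read 67.1 and 132.2 in null forebrains, against 54.2 and 107.6 in heterozygous forebrains, within the neurosphere range of 5.4 to 144.9. Isl1 read 1199.2 and 1104.5 in null forebrains, against 957.8 and 868.0 in heterozygous forebrains on 1422720_at. Both null forebrains lay above both heterozygous ones on both Isl1 probe sets, the opposite of the cord, with differences of 0.33 (SE 0.25) and 0.23 (SE 0.21) that were not called (adjusted p = 0.845 and 0.874 in limma). Among the 16 probe sets 2 had both null forebrains below both heterozygous ones and 3 had both above, against 18.8% and 16.9% of all non-control probe sets.

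The difference between the tissues was tested directly, as the genotype difference in cord minus that in forebrain. None of the 12 probe sets passed in limma, against 1 of all 25925, 0.00386%. An unadjusted p under 0.05 was found for 6 of the 12 and for 1574 of all 25925. Slc18a3, 1 of the 6, entered the test through heterozygous cords only. The 6 also include both Isl1 probe sets and opposed probe sets of Prph, so nothing is read from this count. The values were -2.13 for Slc18a3 (SE 0.58, adjusted p = 0.707), -1.93 for Prph with 1422530_at (SE 0.70, adjusted p = 0.781), -1.17 for Chodl (SE 0.25, adjusted p = 0.581) and -1.09 and -0.86 for the Isl1 probe sets (SE 0.35 and 0.29, adjusted p = 0.771 and 0.781). The sixth ran the other way: Prph with 1449796_at, at 1.62 (SE 0.71, adjusted p = 0.815). The fall of Chodl in null cord is therefore not shown to be particular to the cord.

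Between the tissues, 5 of the 10 genes had a call in at least 1 genotype: Isl1, Slc18a3, Prph, Chodl and Ret. Between heterozygous spinal cord and heterozygous forebrain 8 of the 12 probe sets were called, against 21.7% of all: 5 were higher in cord (11.0% of all) and 3 lower (10.7%). Prph with 1422530_at read 1568.7 and 896.8 in heterozygous cords, against 18.0 and 69.5 in heterozygous forebrains, a difference of 4.48 (SE 0.49). Ret with 1436359_at was higher by 3.74 (SE 0.43) and with 1421359_at by 1.66 (SE 0.26), Slc18a3 by 3.04 (SE 0.41) and Chodl by 2.81 (SE 0.18). These 5 had adjusted p from 0.000003 to 0.00123 in limma. Isl1 was the reverse, lower in cord by -0.86 (SE 0.25) and -0.98 (SE 0.21), with adjusted p of 0.0305 and 0.0067 in limma, and the first of these calls was lost with any 1 of the 4 heterozygous arrays left out, without the filter on low signal and without the trend. The remaining call, a lower level in cord, was 1449796_at of Prph, at -1.77 (SE 0.50, adjusted p = 0.0285 in limma). It opposes 1422530_at of the same gene, which carries the only Prph signal that stood well above culture. It too was lost without any of 3 of the 4 arrays, heterozygous cord 4 and heterozygous forebrains 3 and 4, and without the trend. Slc18a3, Prph with 1422530_at and Ret with 1436359_at reached the array median on cord arrays only, so they entered the test through the tissue in which they were high.

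In null embryos the count of called probe sets was lower than in heterozygous embryos, while the share of all probe sets called was higher. Between null spinal cord and null forebrain 6 of the 12 probe sets were called, against 26.5% of all, with 4 higher in cord (13.3% of all) and 2 lower (13.2%). Chodl was higher by 1.64 (SE 0.18), Prph with 1422530_at by 2.55 (SE 0.49), and Ret by 2.43 (SE 0.43) with 1436359_at and 0.90 (SE 0.26) with 1421359_at, the last call being lost with any 1 of the 4 null arrays left out, without the filter and without the trend. Isl1 was lower by -1.95 (SE 0.25) and -1.84 (SE 0.21). Slc18a3, with 178.7 and 208.1 in null cords, against 67.1 and 132.2 in null forebrains, did not pass (0.91, SE 0.41, adjusted p = 0.13 in limma), although the tissues did not overlap. The calls that differ between the genotypes are those of Slc18a3 and of Prph with 1449796_at. Slc18a3 entered the test through heterozygous cords only, so nothing is read from the lower count. Prph with 1422530_at and Ret with 1436359_at again entered through cord arrays only.

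Against cultures, the same probe sets stood out in the cord of both genotypes. Compared with the 12 untransduced neurospheres, those given neither Olig2 nor GFP, 7 of the 13 probe sets tested were higher in null spinal cord and 0 lower, against 25.4% and 27.4% of all 30200 tested. In heterozygous spinal cord the same 7 were higher and 0 lower, against 25.0% and 27.4% of all. The 7 are both probe sets of Isl1, both of Ret, Prph with 1422530_at, Chodl and Slc18a3. Of these, 5 reached the array median on 0 of the 12 cultures (both of Isl1, Prph with 1422530_at, Ret with 1436359_at and Slc18a3), so they entered the test through the tissue in which they were high, and nothing is read from the 7 against the share of all. Both comparisons use the same cultures, and tissue and culture differ in age, genotype at Ink4a/Arf, hEGFRvIII and cell types, so that these cannot be told apart. For Chodl the difference over neurospheres was 2.97 (SE 0.54) in null cord and 4.37 (SE 0.54) in heterozygous cord. For Slc18a3 it was 1.52 (SE 0.58, adjusted p = 0.0345 in limma) in null cord and 3.40 (SE 0.58) in heterozygous cord. The Slc18a3 call in null cord was lost with either null cord left out, with a pseudocount of 1 and with quantile scaling. For Prph with 1422530_at it was 4.26 (SE 0.44) in null cord and 5.13 (SE 0.44) in heterozygous cord. For Isl2, Lhx3 and Chat no call was made in either genotype.

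**Figure D4:**
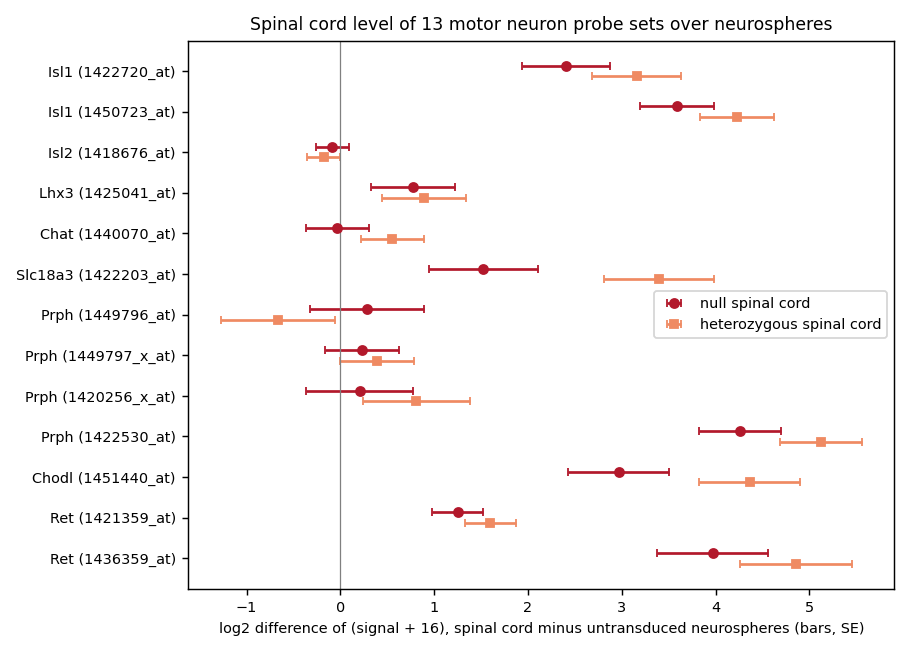
Level in spinal cord minus untransduced neurospheres, in log2(signal + 16), for the 13 probe sets tested, with null cord above heterozygous cord in each pair and bars of 1 SE. The null cord value lies between 0 and the heterozygous value for Slc18a3 (1.52 and 3.40) and Chodl (2.97 and 4.37), and Isl2 lies near 0 in both.

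Within the cultures the signal depended on the probe set. Isl2, Ret with 1421359_at and Lhx3 with 1425041_at had medians of 395.85, 237.5 and 226.15 over the 22 neurosphere arrays. They reached the array median on 12, 10 and 8 of the 12 untransduced cultures. The probe sets given next had lower medians. Over the 22 neurosphere arrays the lowest, median and highest signals were 12, 81.3 and 436.0 for Chodl, 5.4, 45.8 and 144.9 for Slc18a3, and 7.8, 15.4 and 109.9 for Prph with 1422530_at. For Isl1 with 1450723_at they were 8.3, 13.3 and 90.8, for Ret with 1436359_at 3.6, 10.8 and 84.9, and for Mnx1 6.0, 66.5 and 124.4. For Chodl, Slc18a3 and these probe sets of Prph, Isl1 and Ret, every neurosphere array lay below every spinal cord array. Between the 6 cultures labelled null and the 6 wild-type and heterozygous cultures, 6 probe sets were tested and 0 called, against 6.61% of all. An unadjusted p under 0.05 was found for 0 of these 6 and for 4938 of all 25616. The Olig2 probe set was not higher in the lines labelled Olig2. It averaged 6720 ± 2918 with Olig2 virus and 9168 ± 1015 with GFP virus in null lines (SD, n = 3 each), a difference of -0.53 (SE 0.23, adjusted p = 0.168 in limma). In heterozygous lines it averaged 11050 ± 832 with Olig2 virus and 14020 ± 1041 with GFP virus (SD, n = 2 each), a difference of -0.34 (SE 0.28, adjusted p = 1 in limma), so it does not check the virus labels. Between lines labelled Olig2 and lines labelled GFP among the null lines 6 were tested and 0 called, against 7.65% of all. An unadjusted p under 0.05 was found for 0 of the 6 and for 6931 of all 26734. In the heterozygous lines 0 of 6 were called, with 1 at an unadjusted p under 0.05, and over all 26734 probe sets 0 were called in limma, while 1008 had an unadjusted p under 0.05. Chodl averaged 66.2 ± 45.8 with Olig2 virus and 94.6 ± 71.3 with GFP virus in null lines (SD, n = 3 each), which overlap. The GFP array of null line 13 had the lowest median signal of all arrays, 128.9. Its A260/A280 ratio, a sign of RNA purity, was 2.83, against 1.88 and 1.86 for lines 12 and 14 with GFP. Its log2 Gapdh 3′ to 5′ ratio was 0.432, against -0.09 and -0.04. The part of RNA quality in the null line comparison was not tested. The low culture signals left Isl1, Slc18a3, Chodl and Mnx1 untested in all 3 culture comparisons.

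Each of the 10 genes was next read by 1 probe set, the brightest on average across tissue and cultures together. For Prph it was 1449796_at, which averaged 177 in null and 88.35 in heterozygous cords. Prph with 1422530_at, at 642 and 1233, was left out, although it was brighter in cord. Ret was read by 1421359_at and Isl1 by 1422720_at. Averaged over the 10 genes in this way, the log2 level was 7.75 and 8.09 in null cords, against 8.57 and 8.52 in heterozygous cords. The null cords thus lay between the heterozygous cords and the forebrains, at 7.67 and 7.66 in null and 7.65 and 7.49 in heterozygous embryos, and the 22 neurospheres ran from 6.66 to 7.33. Among 12334 other genes the profile over the 30 arrays most like this average was that of Cend1, a neuronal differentiation gene, with a Pearson r of 0.91. Next came Grik1 (0.906), Nap1l2 (0.898), Fxyd7 (0.895), Nefl (0.892), Col3a1 (0.892), Hk1 (0.889), Slc1a6 (0.889), Chadl (0.887) and Rasgrp2 (0.886). All 30 points share the split of tissue from culture, and the part of that split in this r was not tested. None of the 10 was called between null and heterozygous cord, and Col3a1, a collagen, had the opposite sign from the motor neuron genes, at 0.79 (SE 0.15, adjusted p = 0.186 in limma).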

How the data were processed

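The authors deposited MAS5 intensity values on a linear scale, per the submitters' processing notes, and the values show a mean of 500 after trimming 2% at each end on all 30 arrays. The sources used here give no version of MAS5, and detection calls were not used here. Probe sets were named by GEO's platform annotation, in which 34945 had 1 symbol, 932 several and 9224 none, 64 controls among the last. All 10 genes matched the RefSeq table of GRCm38.p6 by Entrez identifier, which gave their chromosomes.

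Linear models of log2(signal + 16) came from limma (3.58.1, R 4.3.3), with eBayes and a variance trend, two-sided tests and Benjamini-Hochberg adjustment over all probe sets tested, after a check on simulated data. Tissue contrasts were fitted on 8 arrays, cord against neurospheres on tissue and 12 untransduced cultures, and virus contrasts on 10. Probe sets entered at or above the array's median on at least 2 arrays of the fit, or 3 in the comparison within untransduced cultures. A gene in a list was read from its probe set of highest mean log2 signal. Every probe set of the 10 genes is described, with up to 4 genes of smallest p from each list and the 10 genes most like their average.

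The genes, lists and tests were chosen with earlier results of these data known. The labels number the tissue samples and the culture lines without stating that each is a separate animal, so p-values measure the spread between these samples. Forebrain and cord share the numbers 1 to 4, read here as embryos, and virus cultures share line numbers; the deviations of same-numbered arrays correlated at 0.0365 and 0.045 in tissue, 0.033 to 0.0797 in null lines and 0.132 in heterozygous lines. The number of arrays limits the precision.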

Additional observations from a re-analysis of the deposited data

Results flagged for a closer look

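In 3 probe sets 1 culture lay far from the others among the 6 cultures labelled null. Isl1 with 1450723_at read 90.8 in line 12, and the next highest was 20.8. Lhx3 with 1421753_a_at read 3.4 in line 13, and the next lowest was 67.4. Ret with 1421359_at read 127.8 in line 13, and the next lowest was 224.4. In all 16 probe sets were looked at in this way, and chance alone flags about 1 in 20.

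In 3 probe sets every null cord lay on one side of the heterozygous cords and every null forebrain on the other side of the heterozygous forebrains. Over all non-control probe sets, both null arrays lay below both heterozygous arrays for 17.2% in cord and 18.8% in forebrain. Both lay above for 17.1% and 16.9%. The share of all probe sets with opposite orders in cord and forebrain was not counted, so nothing is read from the 3. The genotype difference in cord minus that in forebrain was -1.09 and -0.865 for the Isl1 probe sets 1422720_at and 1450723_at, and this difference did not pass in limma (adjusted p = 0.771 and 0.781). It was -0.794 for Prph with 1449797_x_at, where the difference was not tested because the signal was low.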

How the results depend on the processing

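Of the 10 counts of called probe sets, those in forebrain, in the difference between tissues and in the 3 culture comparisons were 0 under every alternative run. In null against heterozygous cord the count of 1 became 0 without the trend, 0 at an adjusted p under 0.01, 2 when only the 2 cord groups were fitted, and 0 to 0 with 1 array left out. There the count over all probe sets, 21, ran from 6 to 27 under other settings and from 3 to 9 with an array left out. Cord against forebrain gave 8 in heterozygous embryos, but 5 with 1 probe set a gene and 5 to 6 with an array left out (5 without heterozygous cord 4). In null embryos it gave 6, but 3 with 1 probe set a gene. Cord against neurospheres gave 7 in both genotypes, but 2 with a stricter filter on low signal (the array median reached on as many arrays as not), 4 with 1 probe set a gene, and 6 to 8 with an array left out. Fewer probe sets tested is how the first of these and the 1 probe set a gene counts came about; the cause was not tested for the others. A replicate block used embryo or line numbers, as a paired fit for the contrasts between tissues and between viruses. Null against heterozygous within a tissue cannot be paired, and there arrays of the same number shared a correlation. With this block the cord count stayed at 1, the cord against forebrain counts at 8 and 6, and no other call changed.

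Small differences that were never called changed sign with an array left out. In cord these ran from -0.104 to 0.291 for Isl2, from -0.308 to 0.0697 for Lhx3 and from -0.919 to 0.467 for Prph with 1420256_x_at. In forebrain they ran from -0.165 to 0.67 for Slc18a3, from -0.0228 to 0.846 for Ret with 1421359_at and from -0.378 to 1.23 for Ret with 1436359_at. The cause was not tested. A further 49 member differences are not printed; 56 of their 886 alternatives had the other sign and 2 gave a call.

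Signal over background limits Mnx1, Slc5a7, Chat and the dim Prph and Lhx3 probe sets, for which a missing call says nothing about the RNA. Isl2 and Lhx3 with 1425041_at in cord lay within or close to the neurosphere range, so their missing calls say little either. The 2 embryos of each genotype limit the rest.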

Other observations

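Lists of other neurons in the cord gave no call between null and heterozygous cord. Of 5 markers of V2 interneurons with a probe set, cells that arise next to motor neurons, 2 were tested, and the sum was 1355.1 and 1149.9 in null cords and 1115.1 and 1135.2 in heterozygous cords. Gata2, a factor of V2b interneurons, had a difference of 0.21 (SE 0.19, adjusted p = 0.965 in limma). Tal1 had one of 0.33 (SE 0.34, adjusted p = 0.976 in limma), and Gata2 and Tal1 make up most of the sum. Sox14, also on the list, went the other way, with 40.5 and 39.3 in null cords, against 166.8 and 148.2 in heterozygous cords. Its signal was too low for it to be tested. Of 5 genes of GABA, glycine and glutamate neurons 4 were tested and 0 called, with a median of 0.10. Gad1, which makes GABA, read 4037.7 and 3658.2 in null cords, against 3419.5 and 3747.8 in heterozygous cords, which overlap.

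Of 9 genes of forebrain cholinergic and striatal neurons with a probe set, 8 were tested and 0 called in cord or in forebrain, with medians of -0.14 and -0.04. In cord Foxp2, a transcription factor of several neuron classes, read 1585.3 and 1587.1 in null embryos, against 945.2 and 1084.6 in heterozygous embryos, a difference of 0.64 (SE 0.15, adjusted p = 0.312 in limma). Forebrain position genes, 6 tested and 0 called, summed to 771.7 and 804.3 in null cords and to 838.8 and 922.8 in heterozygous cords, and the 7 Hox genes had 0 calls between genotypes.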
